A study of Mus musculus with 6 samples.

Results

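The syndecan and glypican genes are the main cell surface carriers of heparan sulfate, and 10 of them were followed here by their symbols, Sdc1 to Sdc4 and Gpc1 to Gpc6, among 26214 gene symbols in each count file. Trim21 encodes a ubiquitin ligase that also binds antibodies inside cells. All 10 symbols were present in the files. Colon tumours of 3 Trim21 -/- samples were set against colon tumours of 3 Trim21 +/+ samples, called knockout and wild type below. Mice of both genotypes had received azoxymethane, a carcinogen, and dextran sulfate sodium, which injures the colon lining, so there is no untreated colon for comparison. The labels give no strain, age, sex, treatment schedule or targeting of the Trim21 locus, and they call the samples biological replicates without saying whether each came from a mouse of its own, so a p-value here speaks of sample-to-sample spread, which may be technical. The family was picked with knockout and wild-type CPM values of these libraries already known, so the knockout against wild-type values of its members are a description and carry no test.

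Syndecans are transmembrane proteins and glypicans are held on the membrane by a lipid anchor. Both carry long sulfated sugar chains that bind growth factors, Wnt and Hedgehog proteins, chemokines and matrix proteins, and so act as co-receptors. In the gut, syndecan-1 is the main syndecan of epithelial cells and is also a surface marker of plasma cells, while syndecan-2 and several glypicans are better known from mesenchymal cells.

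Libraries held 17937821 to 19987295 counts in the knockout and 27085599 to 29742757 counts in the wild type, so the knockout was sequenced less deeply. Trim21 itself had 12.1, 18.9 and 12.8 CPM (counts scaled to library size with TMM factors) in knockout replicates 1, 2 and 3 and 29.8, 20.3 and 19.5 CPM in wild-type replicates 1, 2 and 3, so its reads were lower but not lost (edgeR adjusted p = 0.418). Gene-level counts leave the exons behind those reads unknown. The 8 epithelial markers, from Epcam and Cdh1 to Krt20, had reads in every library and summed to 7272 to 7363 CPM in knockout tumours and 6871 to 7581 CPM in wild-type tumours.

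Sdc4 and Sdc1 dominated the family. To compare levels between genes, CPM was divided by the exon length of each gene (RPKM). Sdc4 had 101.0, 88.2 and 93.8 RPKM in the knockout and 87.9, 83.1 and 75.2 RPKM in the wild type. Sdc1 had 72.8, 74.0 and 73.6 RPKM in the knockout and 80.5, 71.5 and 80.7 RPKM in the wild type. Together these 2 genes made up 72.0% to 76.7% of the summed RPKM of the 10 members in a library. Sdc4 exceeded Sdc1 in 5 of 6 libraries, and their ranges overlapped.

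Because these genes hold most of the family's reads, the sequence before their RefSeq start sites is shown, taken from RefSeq on GRCm38.p6 and stopped before the first base that GENCODE M21 places in an exon of the gene. Capitals mark the GC box GGGCGG, the core of a binding site of Sp1-type factors, or its reverse complement CCGCCC, and the TATA motif TATAA or its reverse complement TTATA. The Sdc1 stretch lies at chr12:8771146-8771322 on the plus strand, just before the gene as GENCODE draws it. The Sdc4 stretch lies at chr2:164443189-164443438 on the minus strand, inside the longer GENCODE gene but outside its exons, and each is written 5′ to 3′.
Sdc1: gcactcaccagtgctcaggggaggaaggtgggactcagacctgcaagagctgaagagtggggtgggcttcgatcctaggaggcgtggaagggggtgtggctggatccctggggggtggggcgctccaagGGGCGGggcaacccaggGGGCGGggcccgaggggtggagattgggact
Sdc4: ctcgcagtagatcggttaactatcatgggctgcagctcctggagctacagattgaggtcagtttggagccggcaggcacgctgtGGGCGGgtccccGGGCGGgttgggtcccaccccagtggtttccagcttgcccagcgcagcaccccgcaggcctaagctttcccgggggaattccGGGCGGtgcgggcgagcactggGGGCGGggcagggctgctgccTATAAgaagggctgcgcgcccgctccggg
The 177 bases of Sdc1 hold 2 GC boxes and no TATA motif, and the 250 bases of Sdc4 hold 4 GC boxes and 1 TATA motif that ends 24 bases before the start site. Over the whole 250 bases before its RefSeq start, Sdc1 has 3 GC boxes and 2 matches of the TATA motif or its reverse complement. These 2 matches lie in the part not printed, and the nearest ends 5 bases before the start site. Of 32851 such windows in the RefSeq table, 32.7% hold at least 1 GC box, 4.09% hold 4 or more, and 22.8% hold the TATA motif. Windows were found for 7 of the 10 members, all but Sdc2, Gpc1 and Gpc6. Sdc3, Gpc2 and Gpc3 have 3 GC boxes each, and Gpc4 and Gpc5 have 1 each. Of these 7 members, the TATA motif occurs in Sdc1, Sdc4 and Gpc5, and in Gpc5 it ends 179 bases before the start site.

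Below the leading pair, Gpc4 averaged 25.4 RPKM over the 6 libraries (22.2 to 28.2) and stood apart from its neighbours in the order, above Gpc1 in every library. Gpc1 averaged 11.2 RPKM (6.37 to 14.9), Sdc2 averaged 9.43 RPKM (5.89 to 13.3) and Sdc3 averaged 5.94 RPKM (3.96 to 8.45), and each of these ranges overlapped the next. The place of Sdc2 differed by genotype. In the knockout it averaged 12.5 RPKM against 10.4 RPKM for Gpc1 and was the higher in 2 of 3 libraries, and in the wild type it averaged 6.37 RPKM against 11.9 RPKM for Gpc1 and was the lower in all 3. Sdc3 was above Gpc2 in all 6 libraries. Gpc2 and Gpc6, at means of 1.40 and 1.33 RPKM over all libraries, changed places between the genotypes. Gpc6 was the higher of the pair in all 3 knockout libraries, with 1.598, 1.84 and 1.42 RPKM there and 0.814, 1.39 and 0.952 RPKM in the wild type. Gpc2, the higher in all 3 wild-type libraries, had 1.38, 1.59 and 1.17 RPKM in the knockout and 1.44, 1.46 and 1.34 RPKM in the wild type. Counting error, and the exon bases that Gpc2 shares with another annotated gene, were not taken into account in this order. Gpc3 was lowest of the detected members at 0.619 RPKM, with a range from 0.0998 to 1.83 RPKM. Gpc5, known mainly from brain and from kidney podocytes, had 0 reads in every library. A floor of 3 reads per library corresponds to 0.101 to 0.165 CPM, so a level above that would have been seen in any of these libraries, counting error aside.

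**Figure D1:**
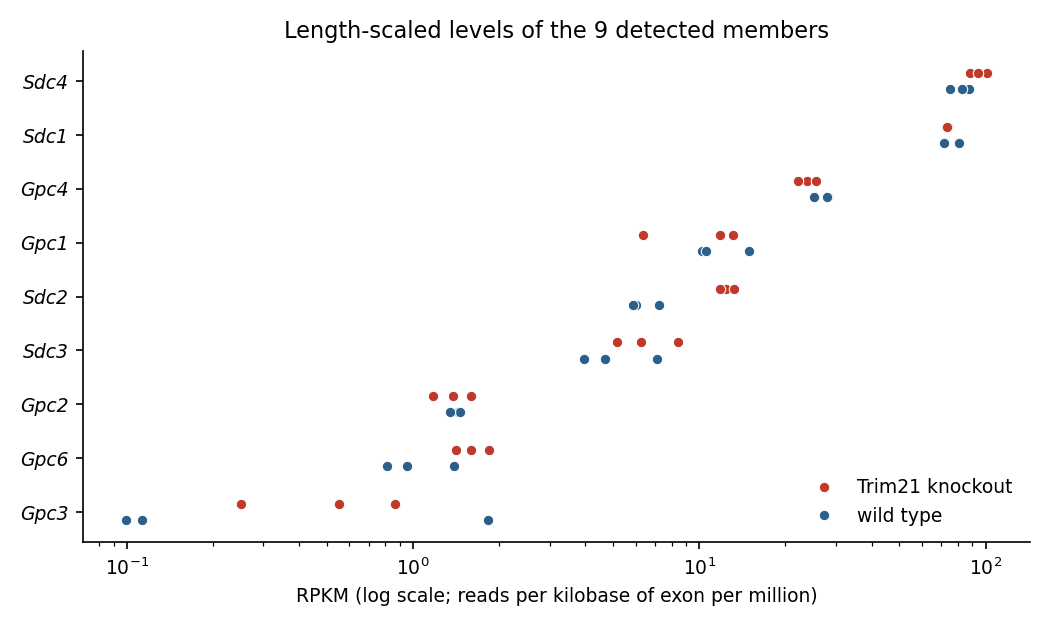
Levels per exon length (RPKM, log axis) of the 9 detected members in each of the 6 libraries, with knockout points drawn above wild-type points for each gene. Sdc4 and Sdc1 lie at 71.5 RPKM or more in every library and Gpc3 at 1.83 RPKM or less, while the points of Sdc2 form separate knockout and wild-type clusters.

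With edgeR's quasi-likelihood test over all genes, 0 of the 9 tested members passed an adjusted p of 0.05 in either direction, where 0.0% of 16281 genes did. At an unadjusted p under 0.05 there were 2 members, Sdc2 and Gpc6, where 10.7% of genes were found. DESeq2 called 1 member, Sdc2, as higher in the knockout, where it called 1.41% of 17119 genes as higher and 1.96% in either direction, and limma-voom called 0 members and 0.0% of genes. The groups did not overlap, with higher knockout values, for 3 of the 9 tested members (Sdc2, Sdc4 and Gpc6), where 9.43% of genes did so, and for 0 members with lower knockout values, where 8.47% of genes did so. In either direction that made 3 of 9 members, where 17.9% of all tested genes had groups apart. As the family was picked on this contrast, nothing is read from these counts. The median log2 fold change of the 9 tested members was −0.03, with 4 above and 5 below 0, and that of all 16281 tested genes was −0.01, with 47.9% above 0. Gpc5 was not tested, as it failed the low-count filter.

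**Figure D2:**
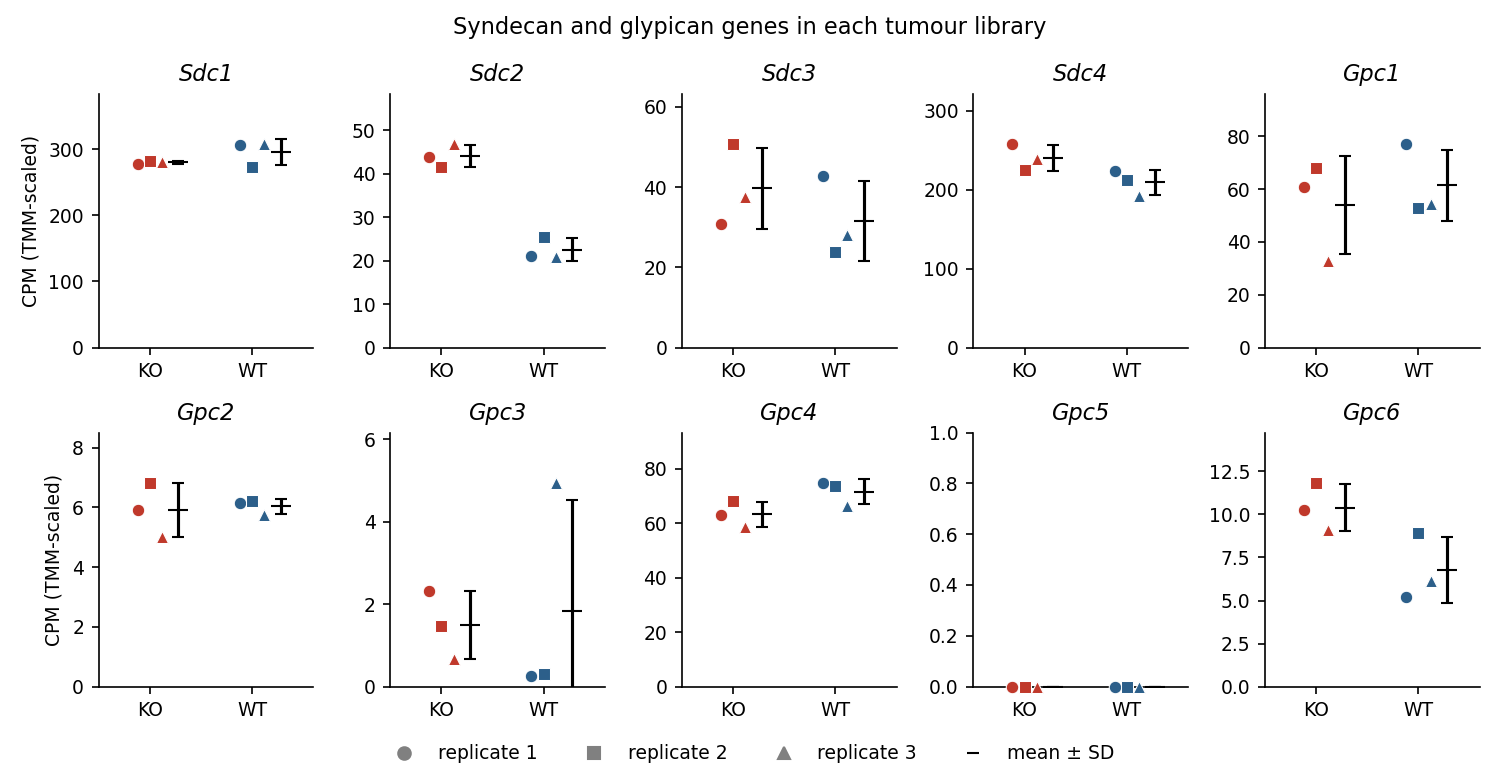
CPM of each member in the 3 knockout (left) and 3 wild-type (right) libraries, each panel with its own axis from 0, with the mean and SD of each group in black. The panel of Sdc2 shows 41.6 to 46.7 CPM in the knockout against 20.8 to 25.5 CPM in wild-type tumours, and Gpc3 shows 1 wild-type library at 4.93 CPM, whose group's SD bar is cut at 0.

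Sdc2, which in other cells organises matrix contacts and binds fibroblast growth factors, lies on chromosome 15 of mm10 from 32920723 to 33034935 on the plus strand and is protein-coding. No overlap of its exons with another annotated gene was found. Sdc2 had 43.9, 41.6 and 46.7 CPM in knockout replicates 1, 2 and 3 and 21.1, 25.5 and 20.8 CPM in wild-type replicates 1, 2 and 3. All 3 knockout libraries were high and all 3 wild-type libraries low, and the lowest knockout value was well above the highest wild-type value. The 95% Poisson intervals of these end points, which cover counting error only, were 38.7 to 44.6 CPM in knockout replicate 2 and 23.7 to 27.4 CPM in wild-type replicate 2. The means were 44.1 ± 2.59 CPM in knockout tumours and 22.5 ± 2.65 CPM in wild-type tumours (SD, n = 3 each), a 1.96-fold higher level in the knockout. Leaving out any single library kept the log2 fold change of Sdc2 between 0.92 and 1.07. As a share of the family's summed RPKM, Sdc2 made up 5.39%, 5.23% and 6.07% in the knockout and 2.64%, 3.50% and 2.85% in the wild type.

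In bulk tissue, more cells of a type and more RNA per cell cannot be told apart, so the Sdc2 values were set beside marker lists of cell types that a tumour sample can hold. The smooth muscle list, 9 of 9 genes with reads in every library, summed to 936.4 to 1537 CPM in knockout tumours and 334.5 to 858.5 CPM in wild-type tumours, and its groups did not overlap. All 9 of its genes had a positive log2 fold change, from 0.34 for Des to 1.43 for Cnn1. Single libraries decided some of these: without wild-type replicate 1, Des was at −0.19 and Synm at −0.04, Des was also below 0 without knockout replicate 1, and Cnn1 was at 2.33 without wild-type replicate 2. The fibroblast list, 8 of 8 genes with reads in every library, summed to 1601 to 2268 CPM in knockout tumours and 1119 to 1681 CPM in wild-type tumours, which overlapped, with 7 of 8 genes above 0. The endothelial list summed to 221.1 to 296.9 CPM in knockout tumours and 196.0 to 245.1 CPM in wild-type tumours, which overlapped as well, with 6 of 7 genes above 0. The macrophage list summed to 250.9 to 359.0 CPM in knockout tumours and 225.6 to 232.6 CPM in wild-type tumours, without overlap, and all 6 genes were above 0. The plasma cell list, with all 7 genes above 0, summed to 923.9 to 3144 CPM in knockout tumours and 263.8 to 635.8 CPM in wild-type tumours, also without overlap. Its mean log2 CPM did overlap, at 3.48, 4.42 and 5.31 in the knockout and 2.52, 2.99 and 3.68 in the wild type. With single libraries left out, the log2 fold change of Derl3 fell as low as −0.38 and that of Prdm1 as low as −0.16. The enteric neuron and glia list summed to 16.9 to 26.4 CPM in knockout tumours and 10.7 to 19.8 CPM in wild-type tumours, which overlapped. Its mean log2 CPM was 1.19, 0.57 and 0.80 in the knockout and −0.84, 0.20 and 0.23 in the wild type, without overlap. Whether its groups overlapped thus depended on the measure, and Sox10 and Gfap were at 0 in at least 1 library. The mast cell list summed to 126.6 to 203.2 CPM in knockout tumours and 83.6 to 239.9 CPM in wild-type tumours, which overlapped. Of its 6 genes, 2 were above 0, and the list's median log2 fold change was −0.29.

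Relative to the average log2 CPM of the fibroblast genes in each library, Sdc2 lay at −1.41, −1.76 and −1.69 in the knockout and −2.33, −2.24 and −1.98 in the wild type. The groups of this difference did not overlap. Against the endothelial list, Sdc2 lay at 0.79, 0.37 and 0.44 in the knockout and −0.14, 0.04 and −0.43 in the wild type, again without overlap. For 4 of the 9 lists, smooth muscle, plasma cell, enteric neuron and glia, and mast cell, the groups of this difference overlapped. Against smooth muscle, Sdc2 lay at −1.83, −1.14 and −1.17 in the knockout and −0.13, −1.77 and −1.61 in the wild type. Against the plasma cell list, Sdc2 lay at 1.98, 0.96 and 0.24 in the knockout and 1.89, 1.69 and 0.70 in the wild type. The part of these cell types in the Sdc2 difference was not tested.

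**Figure D3:**
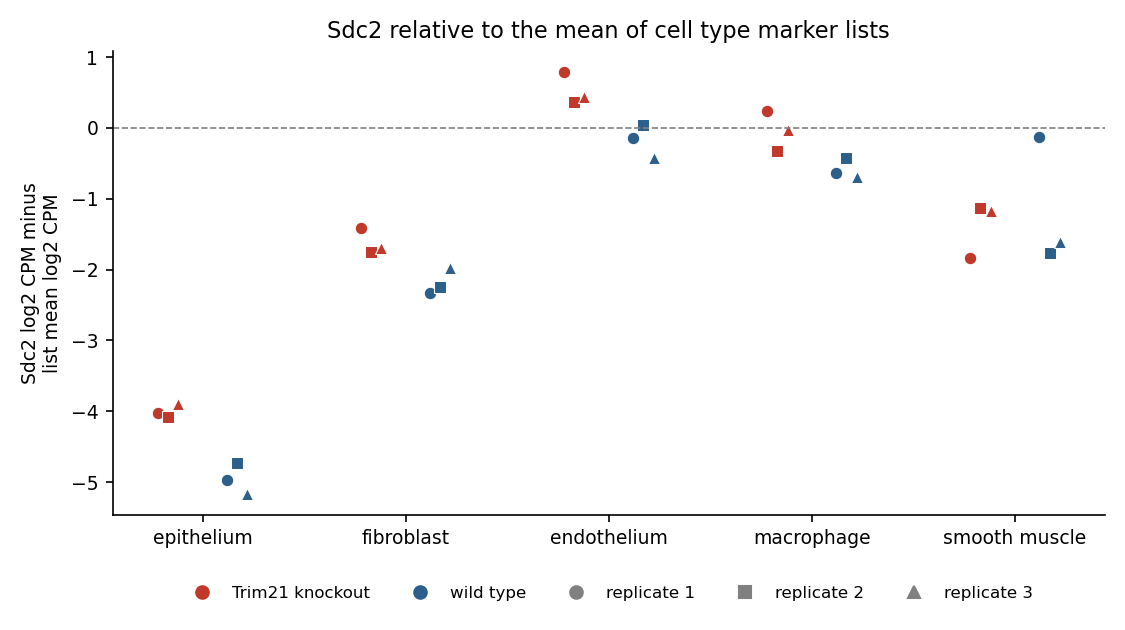
Difference between the log2 CPM of Sdc2 and the mean log2 CPM of 5 of the 9 marker lists (vertical axis, log2 units) in each knockout (left) and wild-type (right) library. Knockout points lie above all wild-type points for the epithelial, fibroblast, endothelial and macrophage lists, and of the lists drawn the groups overlap for smooth muscle, where wild-type replicate 1 lies at −0.13.

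The genes whose profile over the 6 libraries was most like that of Sdc2 were Adam22, Pqlc3 and Gstt1. Likeness was the root mean square difference of log2 CPM after each gene was centred on its own mean, over 13007 genes. It was 0.11, 0.13 and 0.14 log2 units for these genes, against a median of 0.54 over all genes compared. Adam22 had 4.61, 4.83 and 4.91 CPM in knockout tumours and 2.72, 3.08 and 2.48 CPM in wild-type tumours. This is a ranking over 6 libraries and carries no test. Within the family, the closest member to Sdc2 was Gpc6, at 0.27 log2 units.

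Sdc1, whose product anchors epithelial cells to matrix and is shed at injury, was the steadiest member in the knockout. It lies on chromosome 12 from 8771323 to 8793715 on the plus strand. It had 277.2, 281.9 and 280.4 CPM in knockout tumours and 306.6, 272.5 and 307.3 CPM in wild-type tumours, so wild-type replicate 2 was the lowest library of all and the groups overlapped. On the log2 scale the difference was −0.08 ± 0.08 (SE). Since Sdc1 also marks plasma cells, the 7 plasma cell markers are given beside it. They had reads in every library and summed to 923.9, 1604 and 3144 CPM in knockout tumours and 263.8, 571.6 and 635.8 CPM in wild-type tumours. Jchain made up most of that sum and reached 2977 CPM in knockout replicate 3. The Sdc1 values in the knockout libraries differed by a factor of 1.02 from highest to lowest. The part of plasma cells in the Sdc1 values was not tested. Relative to the mean log2 CPM of the epithelial list, Sdc1 lay at −1.37, −1.32 and −1.31 in the knockout and −1.12, −1.32 and −1.28 in the wild type.

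Sdc4, a broadly expressed syndecan that takes part in focal adhesions through protein kinase C alpha, lies on chromosome 2 from 164424247 to 164443887 on the minus strand. It had 257.2, 224.6 and 238.8 CPM in knockout tumours and 223.8, 211.6 and 191.5 CPM in wild-type tumours. The groups met closely, since knockout replicate 2 and wild-type replicate 1 differed by less than their counting intervals, 217.8 to 231.6 CPM and 218.5 to 229.2 CPM. The means were 240.2 ± 16.4 CPM in knockout tumours and 209.0 ± 16.3 CPM in wild-type tumours (SD, n = 3 each), and the log2 fold change was 0.20 ± 0.09 (SE).

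Sdc3, best known from the nervous system and from macrophages, lies on chromosome 4 from 130792537 to 130826319 on the plus strand. Its exons overlap those of Gm12970 and Gm26716 on the other strand, by at most 415 bases for either gene. Neither was counted as a gene of its own. Sdc3 had 30.8, 50.6 and 37.5 CPM in knockout tumours and 42.6, 23.7 and 28.1 CPM in wild-type tumours. Knockout replicate 2 and wild-type replicate 1 were the high libraries of their groups, and the groups overlapped widely. Its log2 fold change was 0.33 ± 0.26 (SE), and its range was 0.12 to 0.61 when single libraries were left out. The genes of most similar profile were Il1rl2, Rgs14 and C3ar1, at 0.10, 0.11 and 0.12 log2 units, against a median of 0.42. C3ar1, the last of these and a complement receptor of myeloid cells, averaged 29.5 CPM in knockout tumours and 22.4 CPM in wild-type tumours. The groups of the macrophage list, unlike those of Sdc3, did not overlap. Its sum in wild-type replicates 1, 2 and 3 was 225.6, 232.6 and 231.7 CPM. It was thus lowest in wild-type replicate 1, where Sdc3 had its highest wild-type value. The knockout libraries had the same order for this sum as for Sdc3. The part of macrophages in the Sdc3 values was not tested.

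Among the glypicans, Gpc4 was the most abundant. It lies on the X chromosome from 52053021 to 52165252 on the minus strand, next to Gpc3, and its product modulates Wnt and fibroblast growth factor signalling. Gpc4 had 63.0, 68.0 and 58.8 CPM in knockout tumours and 74.7, 73.8 and 66.5 CPM in wild-type tumours. Knockout replicate 2 was above wild-type replicate 3, so the groups overlapped. The log2 fold change was −0.18 ± 0.10 (SE), and it stayed between −0.24 and −0.13 when single libraries were left out. The profile of Gpc4 was closest within the family to those of Gpc2, at 0.10 log2 units, and Sdc1, at 0.12 log2 units.

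Gpc1, a glypican of many tumours that binds fibroblast growth factors, lies on chromosome 1 from 92831645 to 92860779 on the plus strand. It had 61.0, 67.8 and 32.9 CPM in knockout tumours and 76.9, 52.7 and 54.5 CPM in wild-type tumours. Knockout replicate 3 was low and wild-type replicate 1 high, and the groups overlapped. The log2 fold change of −0.19 (standard error 0.28) was 0.07 when knockout replicate 3 was left out and 0.01 when wild-type replicate 1 was, so its direction rested on these libraries. Of the Gpc1 exon bases, 977 overlap exons of Ankmy1 on the other strand, and strand handling by the counter is not given in the sources used here. Ankmy1 itself had at most 0.275 CPM in any library.

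Gpc6, whose product is known from growth plate and intestinal elongation in mice, lies on chromosome 14 from 116925315 to 117976544 on the plus strand. It had 10.3, 11.8 and 9.10 CPM in knockout tumours and 5.23, 8.90 and 6.12 CPM in wild-type tumours. All knockout values were above all wild-type values, by little between knockout replicate 3 and wild-type replicate 2, whose counting intervals were 7.81 to 10.5 CPM and 7.86 to 10.05 CPM. The means were 10.4 ± 1.36 CPM in knockout tumours and 6.75 ± 1.92 CPM in wild-type tumours (SD, n = 3 each), with a log2 fold change of 0.62 and a standard error of 0.24. Without single libraries the log2 fold change lay between 0.47 and 0.87. Relative to the fibroblast list mean, Gpc6 lay at −3.50, −3.56 and −4.04 log2 units in the knockout and −4.32, −3.75 and −3.73 in the wild type, so these groups overlapped. The genes of most similar profile were Adgra2, Rassf9 and Pla2g3, at 0.11 to 0.12 log2 units, against a median of 0.46.

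Gpc2, a glypican of developing neurons, was low and even. It lies on chromosome 5 from 138273655 to 138280005 on the minus strand. It had 5.90, 6.81 and 5.02 CPM in knockout tumours and 6.14, 6.23 and 5.75 CPM in wild-type tumours, with 97 to 184 reads per library, and the groups overlapped. The log2 fold change of −0.03 (standard error 0.20) turned to 0.07 without knockout replicate 3. Its exons share 2376 bases with the annotated gene Gm43720 on the same strand, which is not a row of the count files.

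Gpc3, an oncofetal glypican that restrains Hedgehog signalling, was detected at few reads and was dominated by a single library. It lies on the X chromosome from 52272426 to 52613950 on the minus strand. Knockout replicates 1, 2 and 3 had 47, 27 and 13 reads, or 2.33, 1.48 and 0.672 CPM, and wild-type replicates 1, 2 and 3 had 8, 9 and 133 reads, or 0.268, 0.305 and 4.93 CPM. Wild-type replicate 3 was above every other library, and the other 2 wild-type libraries were below every knockout library. The 95% Poisson interval of wild-type replicate 3, 4.13 to 5.84 CPM, did not reach that of any other library. On the log2 scale the difference was −0.29 ± 1.11 (SE), and it was 2.36 without wild-type replicate 3, so its direction depended on that library. Sox10, a glial transcription factor in the enteric neuron and glia list, was named after its values were seen. It had 1.19, 0.549 and 0.414 CPM in knockout replicates 1, 2 and 3, and 0, 0.0339 and 8.12 CPM in wild-type replicates 1, 2 and 3, so it was highest in the same library as Gpc3. The whole neuron and glia list, 7 of 9 genes with reads in every library and Sox10 and Gfap at 0 in at least 1, summed to 16.9 to 26.4 CPM in knockout tumours and 10.7 to 19.8 CPM in wild-type tumours. The mesothelial list, with Upk3b, Wt1 and Lrrn4 at 0 in at least 1 library each, summed to 4.36 to 9.98 CPM in knockout tumours and 5.26 to 7.65 CPM in wild-type tumours. Their part in the Gpc3 values was not tested.

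**Figure D4:**
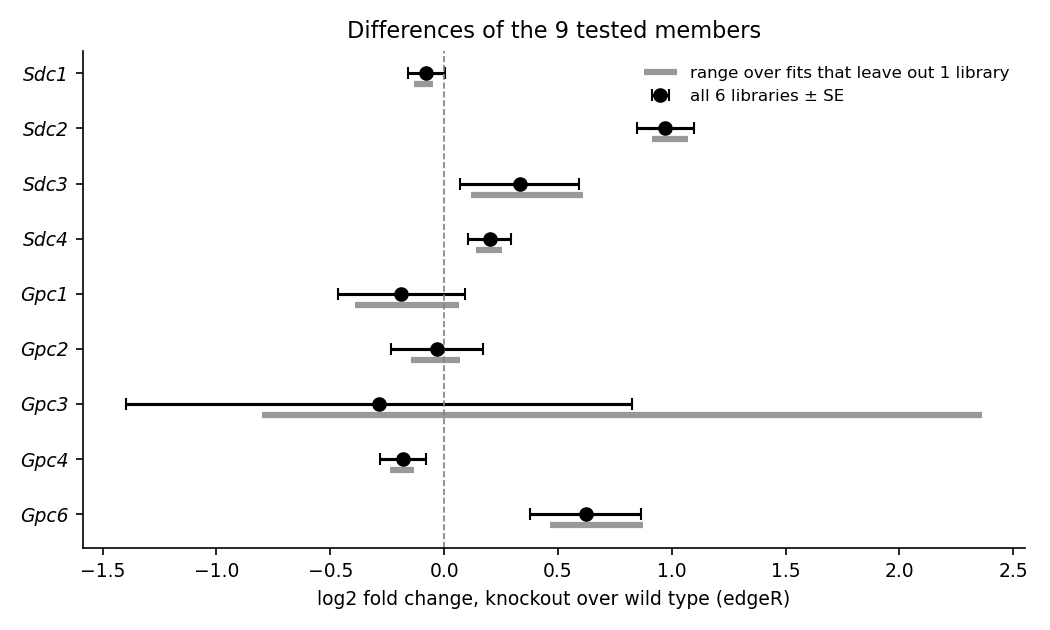
Log2 fold change of knockout over wild type (horizontal axis) for the 9 tested members, as the edgeR estimate with its standard error (black) and the range over the 6 fits that each leave out 1 library (grey). Sdc2 lies at 0.97 with a narrow range, Gpc3 spans −0.80 to 2.36, and the ranges of Gpc1 and Gpc2 cross 0.

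The enzymes and partners of heparan sulfate were counted in 9 lists of 78 genes, of which 72 were tested. These lists were chosen with earlier results of these data known. The genes named from each list are those of smallest unadjusted p. The counts and p-values of the lists are therefore a description and no independent test. By edgeR's quasi-likelihood test adjusted over all 16281 genes, 0 of the 72 were higher and 0 lower in the knockout, where 0.0% of all genes passed. At an unadjusted p under 0.05, 6 were higher, where 6.63% of genes were, and 3 were lower, where 4.12% of genes were. DESeq2 called 4 of them, namely Cxcl12, Nrp1, Gusb and Mmp7, where it called 1.96% of all 17119 genes, and limma-voom called 0, where it called 0.0%. Of the 72, the groups did not overlap, with higher knockout values, for 8 genes, where 9.43% of all tested genes did so. With lower knockout values this held for 4 genes, where 8.47% of all tested genes did so. The median log2 fold change of the 72 genes was 0.06, with 40 above and 32 below 0, and over all tested genes it was −0.01.

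Of the 6 genes that build the linker or phosphorylate it, 4 had a positive and 2 a negative log2 fold change, with a median of 0.05. Fam20b, the kinase of the linker xylose, had 290.1, 280.3 and 295.2 CPM in knockout tumours and 257.4, 268.3 and 258.9 CPM in wild-type tumours. These groups did not overlap, and the log2 fold change was 0.14 ± 0.07 (SE) (edgeR adjusted p = 0.518). Xylt1, which adds that xylose, had 0.21 and B4galt7, a linker galactosyltransferase, had −0.07, with standard errors of 0.44 and 0.16, and both changed sign without knockout replicate 3, to −0.18 and 0.04. All 5 genes of chain polymerisation were below 0, with a median of −0.12. Extl1 had −0.46, Ext2 −0.12 and Ext1 −0.25, with edgeR adjusted p of 0.663, 0.674 and 0.694. The log2 fold change of Ext1, a subunit of the chain polymerase, was 0.01 without wild-type replicate 1. Extl2 had −0.03 ± 0.18 (SE) and reached 0.17 with a single library left out.

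Of the 16 genes that sulfate or epimerise the chain, 10 were tested, and Ndst4, Hs6st3, Hs3st2, Hs3st4, Hs3st5 and Hs3st6 were below the filter. Hs2st1, the 2-O-sulfotransferase, had 91.7, 94.1 and 95.4 CPM in knockout tumours and 113.0, 116.5 and 109.9 CPM in wild-type tumours. All knockout libraries were low, and the log2 fold change was −0.27 ± 0.08 (SE) (edgeR adjusted p = 0.347). Hs6st1, a 6-O-sulfotransferase, had 164.1, 164.8 and 143.3 CPM in knockout tumours and 178.6, 186.6 and 169.0 CPM in wild-type tumours, with a log2 fold change of −0.18. Glce, the epimerase that makes iduronic acid, had 58.4, 53.3 and 57.8 CPM in knockout tumours and 53.3, 50.8 and 40.3 CPM in wild-type tumours, with a log2 fold change of 0.23. The list's median was 0.07, with 5 genes on each side of 0.

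Outside the cell, chains are trimmed by the sulfatases Sulf1 and Sulf2 and by heparanase. Sulf1 had 30.8, 86.1 and 154.9 CPM in knockout tumours and 63.4, 70.9 and 40.7 CPM in wild-type tumours, so the knockout libraries lay on both sides of the wild type. Its log2 fold change was 0.64 ± 0.52 (SE) (edgeR adjusted p = 0.670), and it was 0.0017 without knockout replicate 3. Hpse, the heparanase gene, had 0.15, and Hpse2, which has no chain-cutting activity, had −0.19 at about 1 CPM and 0.30 without wild-type replicate 2. Among 8 lysosomal enzymes of chain breakdown, 5 were above and 3 below 0, with a median of 0.05. Gusb, beta-glucuronidase, had 92.3, 101.7 and 107.9 CPM in knockout tumours and 139.6, 130.7 and 130.6 CPM in wild-type tumours. The groups did not overlap, and the log2 fold change was −0.41 ± 0.09 (SE) (edgeR adjusted p = 0.333, DESeq2 adjusted p = 0.0373). Ids and Arsg had 0.29 and 0.32, with edgeR adjusted p of 0.510 and 0.574.

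Proteases known to release syndecan ectodomains had 1 gene above and 5 below 0, with a median of −0.21. Mmp7, matrilysin, which sheds syndecan-1 in mouse lung epithelium, had 296.1, 212.8 and 199.2 CPM in knockout tumours and 577.0, 441.5 and 399.0 CPM in wild-type tumours. Each knockout value was below each wild-type value, and the log2 fold change was −1.001 ± 0.19 (SE) (edgeR adjusted p = 0.322, DESeq2 adjusted p = 0.00028). Mmp2, a gelatinase of stromal cells, had 60.9, 90.1 and 94.2 CPM in knockout tumours and 69.0, 56.3 and 40.6 CPM in wild-type tumours, with a log2 fold change of 0.56 (edgeR adjusted p = 0.459). Adam10 had −0.25 (edgeR adjusted p = 0.485). Of 6 cytoplasmic partners of syndecans, 3 were above and 3 below 0. Prkca, which binds syndecan-4, had 104.6, 90.5 and 124.0 CPM in knockout tumours and 46.2, 96.0 and 78.3 CPM in wild-type tumours, which overlapped. Its log2 fold change was 0.53 (edgeR adjusted p = 0.503), and Tiam1 and the syntenin gene Sdcbp had −0.23 and −0.10.

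Among 10 other genes of heparan sulfate proteoglycans or part-time carriers, 5 were above and 5 below 0, with a median of 0.10. Nrp1, a receptor of semaphorins and VEGF that can carry a chain, had 61.8, 78.0 and 86.7 CPM in knockout tumours and 51.1, 49.7 and 51.4 CPM in wild-type tumours. Its groups did not overlap, and the log2 fold change was 0.57 ± 0.14 (SE) (edgeR adjusted p = 0.334, DESeq2 adjusted p = 0.033). The basement membrane genes Hspg2 (perlecan) and Col18a1 had 0.40 and 0.46, with edgeR adjusted p of 0.418 and 0.482, and the groups of both overlapped. For Col18a1, knockout replicate 1 had 135.6 CPM, below the wild-type libraries at 147.0 to 149.8 CPM. Knockout replicate 1 was the lowest knockout library for Nrp1, Hspg2 and Col18a1.

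Growth factors and receptors that bind heparan sulfate had the highest list median, 0.47, with 15 of 17 genes above 0. Cxcl12, a stromal chemokine held on heparan sulfate, had 105.2, 74.0 and 90.4 CPM in knockout tumours and 29.6, 55.6 and 41.6 CPM in wild-type tumours. Every knockout library was above every wild-type library, and the log2 fold change was 1.09 ± 0.24 (SE) (edgeR adjusted p = 0.333, DESeq2 adjusted p = 0.00224). Fgf10, a mesenchymal ligand of epithelial Fgfr2, had 19.6, 20.0 and 27.6 CPM in knockout tumours and 4.96, 15.3 and 9.31 CPM in wild-type tumours, also without overlap. Its log2 fold change was 1.18 ± 0.38 (SE) (edgeR adjusted p = 0.391). Fgf18 was low, at a mean of 1.02 CPM in knockout tumours and 0.309 CPM in wild-type tumours. It had 1.34, 0.439 and 1.29 CPM in knockout tumours and 0.235, 0.508 and 0.185 CPM in wild-type tumours, which overlapped. Wild-type replicate 1 was lowest for Cxcl12 and Fgf10, as it was for the smooth muscle list. The fibroblast list had its highest wild-type sum there, 1681 CPM, against 1648 and 1119 CPM in replicates 2 and 3. Its mean log2 CPM in wild-type replicates 1, 2 and 3 was 6.73, 6.92 and 6.36. The part of stromal cells in the growth factor and receptor values was not tested.

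**Figure D5:**
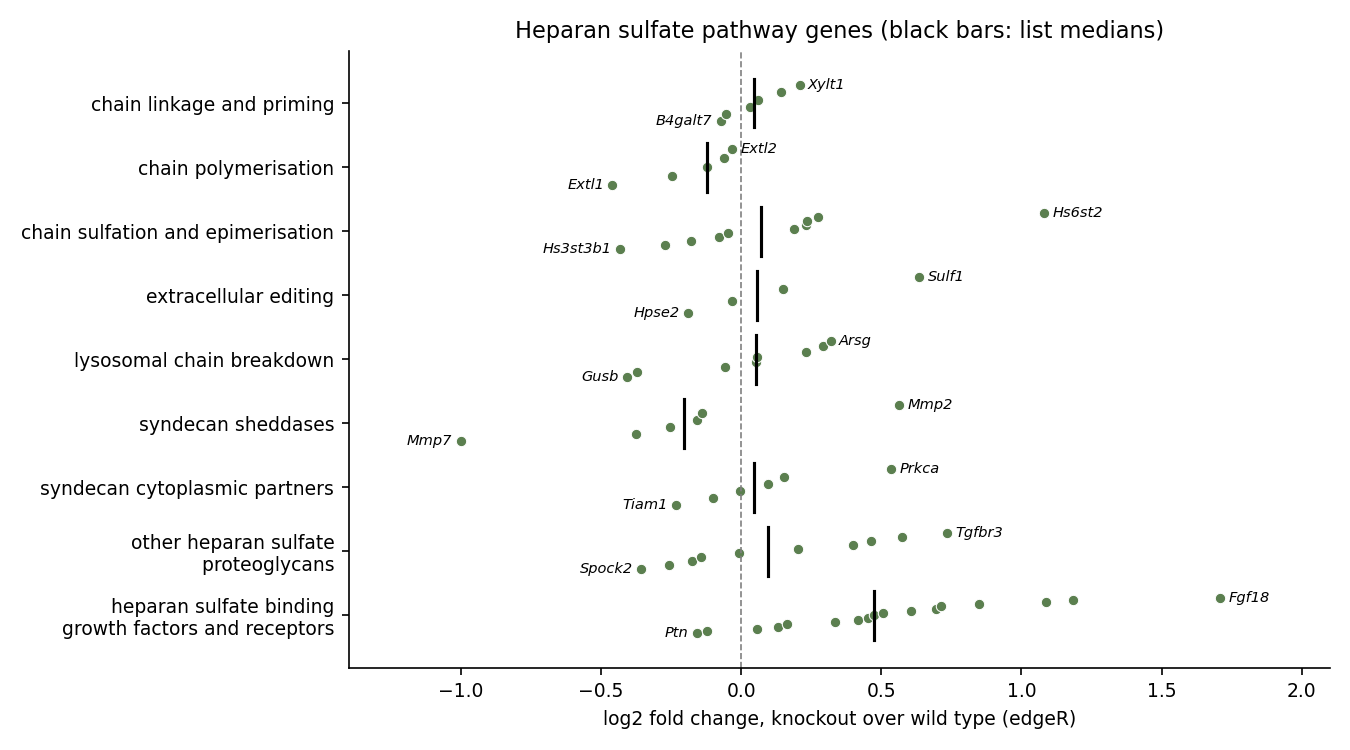
Log2 fold change of knockout over wild type (horizontal axis) for the 72 tested genes of the 9 heparan sulfate lists, 1 point per gene and a black bar at each list's median, with the lowest and highest gene of each list named. Values run from −1.001 for Mmp7 to 1.71 for Fgf18, which had at most 0.508 CPM in wild-type tumours. The median of the growth factor and receptor list lies at 0.47.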

How the data were processed

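The authors deposited whole-number read counts per gene symbol, 1 file for each of 6 colon tumour libraries. Per the labels' protocols, RNA was extracted with Trizol, depleted of ribosomal RNA and made into libraries with a low-input kit. The submitters' processing notes name TopHat2, edgeR, limma and mm10, with no version or role, and which program counted reads, on which strand and with which gene models is not given in the sources used here.

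The main test was edgeR's quasi-likelihood test (edgeR 4.0.16, R 4.3.3, TMM scaling, filterByExpr, group as the only term, two-sided, Benjamini-Hochberg over 16281 genes). DESeq2 1.42.0 and limma-voom (limma 3.58.1) were alternatives, and the code was checked on simulated counts. CPM used TMM-scaled library sizes, and RPKM used the union of GENCODE M21 exons on GRCm38, the assembly of mm10. Log2 CPM for profiles and marker lists used a prior count of 2. Standard errors are the log2 fold change divided by the root of F.

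Members and lists were chosen with earlier results of these data known. Named pathway genes are the 3 with the smallest unadjusted p in each list, and any gene past the threshold. Similar profiles were sought among genes whose log2 CPM averaged 1 or more, without predicted, small RNA, sex-linked and antigen receptor genes.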

Additional observations from a re-analysis of the deposited data

How the results depend on the processing

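Alternatives were DESeq2, limma-voom, RLE, upper quartile and total count scaling, no low-count filter, a minimum CPM of 1 in at least 3 libraries, the replicate block, and each library left out. DESeq2 called 335 genes in all, 1 member of the family and 4 pathway genes, where edgeR called 0 of each. Leaving out single libraries gave 0 to 1 genes in all, the 1 without wild-type replicate 3, and 0 members and 0 pathway genes each time. The other settings, replicate block included, called 0 genes, 0 members and 0 pathway genes. Replicate numbers share nothing stated in the labels, and the deviations of same-numbered libraries from their group means correlated at −0.147, −0.175 and −0.0734, so no pairing was assumed. Log2 fold changes of Sdc1, Sdc2, Sdc3, Sdc4, Gpc4 and Gpc6 kept their sign in all 14 alternatives. Gpc3 was at 0.88 with limma-voom, 0.99 with the replicate block, 0.06 when knockout replicate 3 was left out and 2.36 when wild-type replicate 3 was. The cause was not tested. The median of the tested members was 0.20 with limma-voom and with the replicate block, and between −0.08 and 0.14 with single libraries left out, above 0 without knockout replicate 3 (0.07), wild-type replicate 1 (0.01) or wild-type replicate 3 (0.14). Gpc2 and Gpc3 rested on 97 to 184 and 8 to 133 reads per library.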
